A study of Mus musculus with 8 samples.

Results

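A set of 6 activity-regulated genes that the study followed up was examined across the cortex and hippocampus of Tet1 knockout (KO) and wild-type (WT) mice. They were Npas4, Fos, Egr2, Egr4, Nr4a2 and Arc, found as the array's non-control probes whose gene symbol equals one of these names. This gave 6 genes on 7 probes and 16 spots, of 23688 genes with a symbol, 39429 probes and 43020 spots in all, and each of the 6 was among the 16775 genes tested. The genes were chosen by their KO to WT ratios on these arrays, so those ratios are given below as a description with no test. The comparison of cortex with hippocampus was not used to choose them and is tested.

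The 8 samples formed 4 groups of 2, namely KO cortex, WT cortex, KO hippocampus and WT hippocampus. All were total RNA from snap-frozen tissue of naive, unstimulated mice of 129 C57BL6 genetic background, in both genotypes. Tet1 is an enzyme that converts 5-methylcytosine in DNA to 5-hydroxymethylcytosine, and the question was how gene expression in cortex and hippocampus differs in its absence. Each of 4 two-colour arrays carried 1 KO sample in Cy5 and 1 WT sample in Cy3, 2 arrays per tissue. The Tet1 allele, the age and sex of the mice and whether replicates came from separate animals are not stated in the labels, so p-values reflect only how far these samples differ from one another, and that spread may be technical. Genotype and dye cannot be told apart in a KO to WT ratio of one probe, whereas a comparison of tissues within one dye carries no such bias.

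In the KO samples 66.6% to 67.2% of spots were well above background, against 49.7% to 51.7% in the WT samples, and no spot was saturated. Precision is limited throughout by the number of arrays. Of 3 probes for the targeted gene, the brightest had Tet1 levels of 8.49 and 8.69 in KO cortex, against 8.67 and 8.89 in WT cortex, and of 8.68 and 8.58 in KO hippocampus, against 8.92 and 8.68 in WT hippocampus. Its ratio was -0.18 ± 0.05 (SE, 4 arrays) and did not pass (limma, adjusted p = 0.082). The mean ratio was -0.22 on the second probe and 0.21 on the third, a dim probe well above background in KO alone. Where these probes lie relative to the altered part of Tet1 is not known, so the targeted gene does not check the genotype labels here. All 8 hippocampal marker genes were lower in cortex than in hippocampus in each genotype, and 5 of 6 cortical markers were higher in cortex. All 9 striatal markers (among them Drd2 and Adora2a) were also higher in cortex in each genotype.

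Neuronal activity opens calcium entry through synaptic receptors and voltage-gated channels, and calcium-dependent kinases then act on transcription factors such as CREB, SRF and MEF2 that already sit on the promoters of immediate-early genes. Transcription of these genes starts within minutes and needs no new protein. Npas4 encodes a bHLH-PAS transcription factor that is induced selectively by calcium entry and regulates inhibitory synapses. Fos encodes a subunit of the dimeric factor AP-1, Egr2 and Egr4 encode zinc finger transcription factors, and Nr4a2 encodes an orphan nuclear receptor that also specifies dopamine neurons. Arc encodes a cytoskeleton-associated protein that promotes removal of AMPA receptors from synapses. These genes are used as a readout of recent activity in cortex and hippocampus, and memory formation depends on several of them.

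Promoter sequences are shown because CREB, which links calcium signals to this group of genes, recognises a short DNA word that can be looked for in them. RefSeq promoter sequences (GRCm38.p6) matched 5 of the 6 genes, namely Npas4, Fos, Egr2, Egr4 and Nr4a2. TGACGT, a part of the cyclic AMP response element, was searched on both strands in the 250 bases before each start site. It was present in 4 of the 5 genes, against 7.293% of 27025 genes with such a window. The capitals below mark TGACGT or its reverse complement ACGTCA in the 200 bases before the start site of Npas4 (chr19:4989972-4990171, minus strand), Fos (chr12:85473690-85473889, plus strand) and Egr4 (chr6:85513590-85513789, minus strand), and in 30 bases of Egr2 (chr10:67537801-67537830, plus strand).
Npas4: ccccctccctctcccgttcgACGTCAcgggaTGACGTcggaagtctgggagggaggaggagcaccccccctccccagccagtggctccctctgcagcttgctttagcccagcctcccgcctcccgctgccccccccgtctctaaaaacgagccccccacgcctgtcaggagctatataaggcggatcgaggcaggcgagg
Fos: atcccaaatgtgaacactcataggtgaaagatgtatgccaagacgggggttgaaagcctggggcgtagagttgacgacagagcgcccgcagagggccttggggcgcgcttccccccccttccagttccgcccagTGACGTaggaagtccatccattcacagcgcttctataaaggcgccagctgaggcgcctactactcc
Egr4: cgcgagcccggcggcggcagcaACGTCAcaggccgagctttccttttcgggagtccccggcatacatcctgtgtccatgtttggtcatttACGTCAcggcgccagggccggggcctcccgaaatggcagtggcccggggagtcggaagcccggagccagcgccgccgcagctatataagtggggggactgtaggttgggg
Egr2: atatgggcagcgACGTCAcgggtattgaag
Npas4 had 2 matches, 180 and 169 bases before the start. Fos had 1 at 66 bases, Egr4 had 2 at 178 and 110 bases, and Egr2 had 1 at 56 bases before one of its 5 annotated starts. The Nr4a2 window held none, though it did hold the shorter words TGACG and CGTCA, whose share over all genes was not counted. A window without TGACGT is thus not one without any such word. The full palindrome TGACGTCA, which contains both marked words, was in none of the 5 genes and in 1.769% of all genes. Within the same 250 bases the CArG box, the sequence recognised by SRF, was found in Egr2 alone among the 5, against 1.624% of all genes. Sites further upstream were not searched, so a gene without a match here may have one there. A match is a description of the letters and not a measured binding site. CpG dinucleotides, which carry the methyl groups that Tet1 oxidises, numbered 44 in the Nr4a2 window, 28 in Egr4, 16 in Npas4, 15 in Fos and 15 to 26 in the Egr2 windows, against a median of 6 over all promoters. Of all promoters, 99.5% had fewer than Nr4a2 and 92.4% fewer than Egr4. The share was 74.6% for Npas4, 72.7% for Fos and 72.7% to 90.4% for the Egr2 windows, so many promoters hold as many as these.

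Values from here on are log2 levels, normalised per dye channel, or log2 ratios of KO over WT on 1 array. Probe positions refer to mm9. Errors are the limma SE for mean ratios (n = 2 arrays for each tissue). That fit takes a shared spread for each gene from all 4 arrays, moderated over genes, so both tissues carry the same SE. This SE is not the spread of the 2 arrays of that tissue, which is seen in the ratios given by array. Differences between tissues also carry the limma SE (n = 2 samples for each tissue), with a shared spread from all 8 samples. Levels are compared between samples for one gene, not between genes, because each gene has its own probe.

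Npas4 was the member with the lowest KO to WT ratio on every array. Its probe (chromosome 19, 4984356 to 4984415) had levels of 11.85 and 11.98 in KO cortex, against 13.53 and 13.39 in WT cortex. In hippocampus the levels were 9.92 and 10.11 in KO, against 12.28 and 11.91 in WT. Every KO sample thus lay below both WT samples of its tissue, and KO cortex was at about the level of WT hippocampus. The KO to WT ratios were -1.67 and -1.40 in cortex and -2.36 and -1.81 in hippocampus. The mean of -1.54 ± 0.16 in cortex corresponds to 34.4% of the WT level, and that of -2.09 ± 0.16 in hippocampus to 23.6%. Of the 16775 genes tested, 7 had a lower mean ratio than Npas4 in cortex and 6 in hippocampus.

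Fos, read by a probe spotted 10 times (chromosome 12, 86817900 to 86817959), was lower in KO to a smaller extent. Its levels were 10.98 and 10.81 in KO cortex, against 11.29 and 12.002 in WT cortex. In hippocampus they were 9.18 and 9.47 in KO, against 10.23 and 10.86 in WT. No KO sample reached a WT sample of its tissue, but the WT cortex samples lay 0.71 apart. The KO to WT ratios were -0.31 and -1.19 in cortex and -1.05 and -1.40 in hippocampus, with means of -0.75 ± 0.23 and -1.22 ± 0.23. The SD of the repeated spots was 0.04 on cortex array 1 (10 spots, -0.38 to -0.27) and 0.05 on cortex array 2 (10 spots, -1.25 to -1.09). It was 0.06 on each hippocampus array (10 and 9 usable spots). This covers the spread of spots on one array and not that of labelling, hybridisation or samples.

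Egr2 (probe on chromosome 10, 67004798 to 67004857) had levels of 10.89 and 10.82 in KO cortex, against 10.82 and 11.76 in WT cortex. In hippocampus it had 8.47 and 9.30 in KO, against 9.66 and 9.97 in WT. The genotypes overlapped in cortex and did not overlap in hippocampus, where the KO samples were 0.83 apart. The KO to WT ratios were 0.07 and -0.94 in cortex and -1.19 and -0.67 in hippocampus, with means of -0.43 ± 0.27 and -0.93 ± 0.27. Raw Egr2 signals in WT hippocampus were only 2.97 and 3.27 times the median of the negative controls. The range of its ratios over the 4 arrays, 1.26, was the widest of the 6.

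Egr4 (probe on chromosome 6, 85461153 to 85461212) had levels of 13.25 and 13.17 in KO cortex, against 13.26 and 13.88 in WT cortex. In hippocampus it had 12.30 and 12.54 in KO, against 12.98 and 13.14 in WT. KO samples were below WT samples in both tissues, but the first replicates in cortex were nearly equal, with a ratio of -0.01. The other ratios were -0.71 in cortex and -0.68 and -0.60 in hippocampus. The means were -0.36 ± 0.17 in cortex and -0.64 ± 0.17 in hippocampus, or 77.8% and 64.1% of WT.

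Nr4a2 gave different directions on its 2 probes. The brighter one (chromosome 2, 56960699 to 56960758) had levels of 13.13 and 13.03 in KO cortex, against 13.09 and 13.26 in WT cortex, and of 12.91 and 12.88 in KO hippocampus, against 13.27 and 13.13 in WT hippocampus. Its ratios were 0.04 and -0.23 in cortex and -0.36 and -0.25 in hippocampus, with means of -0.10 ± 0.09 and -0.30 ± 0.09. The dimmer one (chromosome 2, 56959637 to 56959696) gave 0.37 and 0.06 in cortex and 0.12 and 0.11 in hippocampus, above 0 on all 4 arrays. Both probes were well above background in all 8 samples, so the direction of Nr4a2 is not settled. The first 30 of 60 bases of each are printed to tell the probes apart, with no capitals since no part of them is singled out.
Nr4a2 brighter probe: aaagaccatgtgactttcaataatgggggt
Nr4a2 dimmer probe: aagggacacatagtgtttgtaacaccgccc
Both lie on the minus strand and are assigned by the array to the same RefSeq transcript, and their positions do not overlap.

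Arc (probe on chromosome 15, 74499592 to 74499651), the one member that encodes no transcription factor, had levels of 14.90 and 14.90 in KO cortex, against 15.16 and 15.97 in WT cortex. In hippocampus it had 14.15 and 14.11 in KO, against 14.67 and 15.12 in WT. The KO replicates were within 0.04 of each other in both tissues and lay below every WT sample of the tissue. The KO to WT ratios were -0.26 and -1.07 in cortex and -0.52 and -1.01 in hippocampus, with means of -0.67 ± 0.23 and -0.77 ± 0.23.

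**Figure D1:**
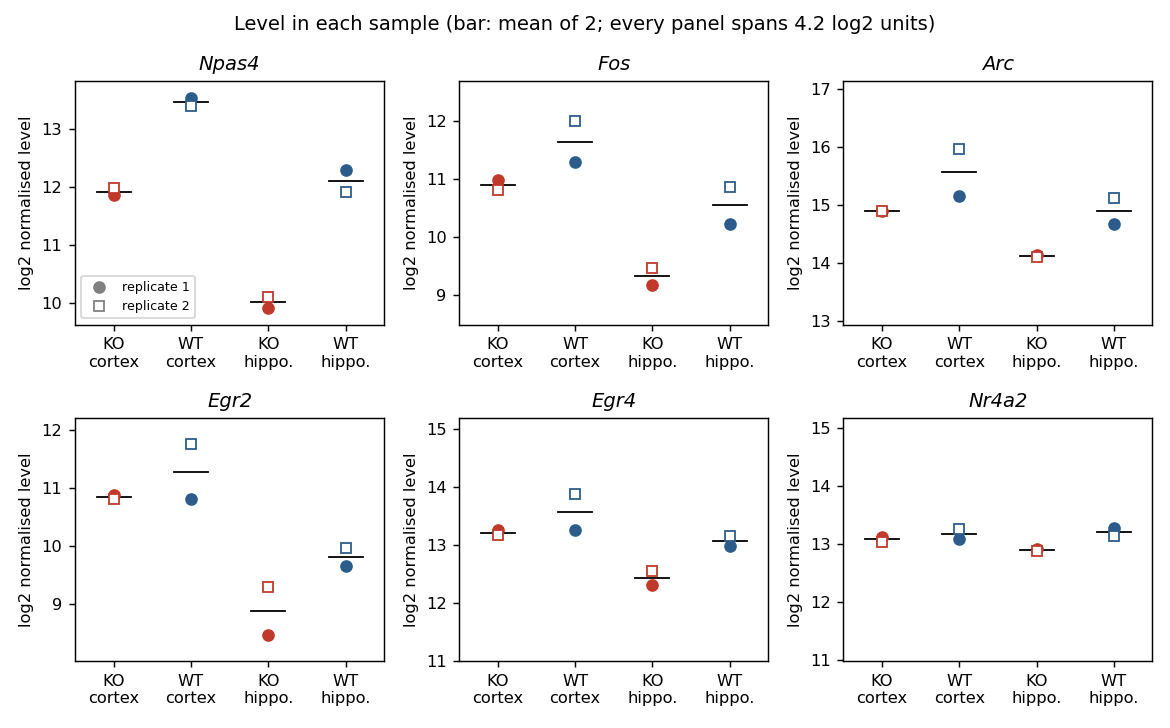
Log2 normalised level (vertical axis) of each of the 6 genes in each sample, by group (horizontal axis), with replicate 1 as filled circles, replicate 2 as open squares and the mean of 2 as a bar; every panel spans the same number of log2 units. In hippocampus the KO samples of all 6 genes, Nr4a2 by its brighter probe, lie below the WT samples, and Npas4 at 11.85 and 11.98 in KO cortex, against 13.53 and 13.39 in WT cortex, has the widest gap between genotypes in cortex.

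With Nr4a2 read by its brighter probe, KO hippocampus had the lowest mean level of the 4 groups for all 6 genes, and WT cortex the highest for all but Nr4a2. The groups between them, KO cortex and WT hippocampus, overlapped for Npas4 (11.92 ± 0.09 and 12.10 ± 0.26, SD, n = 2 each), Fos (10.89 ± 0.12 and 10.55 ± 0.45) and Arc (14.90 ± 0.0024 and 14.90 ± 0.32). KO cortex lay above WT hippocampus for Egr2 (10.85 ± 0.05 and 9.82 ± 0.22) and for Egr4 (13.21 ± 0.06 and 13.06 ± 0.12). Nr4a2 had 13.08 ± 0.07 in KO cortex, against 13.17 ± 0.12 in WT cortex and 13.20 ± 0.10 in WT hippocampus, and WT cortex overlapped both of the others. On the dimmer Nr4a2 probe the levels were 11.95 and 11.95 in KO cortex, against 11.58 and 11.89 in WT cortex, and 12.09 and 11.85 in KO hippocampus, against 11.97 and 11.74 in WT hippocampus, so there WT cortex was lowest and the genotypes overlapped in hippocampus.

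Across the 6 genes the median ratio was -0.55 in cortex and -0.85 in hippocampus, against 0.04 and 0.02 over all genes tested. By array it was -0.14 and -1.01 in cortex and -0.87 and -0.84 in hippocampus, so cortex array 1 stood apart from the other 3. Npas4 did not share this, with -1.67 on that array. The levels of KO samples did not overlap those of WT samples and were lower for 4 of the 6 genes in cortex and, with Nr4a2 on its brighter probe, for all 6 in hippocampus, which over all genes tested was the case for 22.2% and 21.1%. The ratio was below 0 on all 4 arrays for Npas4, Fos, Egr4 and Arc, and for 17.5% of all genes. These counts come from the contrast that led to the choice of the genes, and nothing is read from them. The difference in ratio, cortex minus hippocampus, was positive for each gene, at 0.55 ± 0.22 for Npas4, 0.49 ± 0.38 for Egr2, 0.47 ± 0.32 for Fos, 0.28 ± 0.25 for Egr4, 0.21 ± 0.13 for Nr4a2 and 0.10 ± 0.32 for Arc. Over all genes tested, 7954 of 16775 had a difference below 0. The median difference of the 6 was 0.38 with all arrays and 0.0099 without cortex array 1, so its size rests on that array. The authors' deposited table of log2 values gave the same direction on every array for every one of the 6 genes, with Npas4 at -1.65 and -1.37 in cortex and -2.25 and -1.70 in hippocampus.

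**Figure D2:**
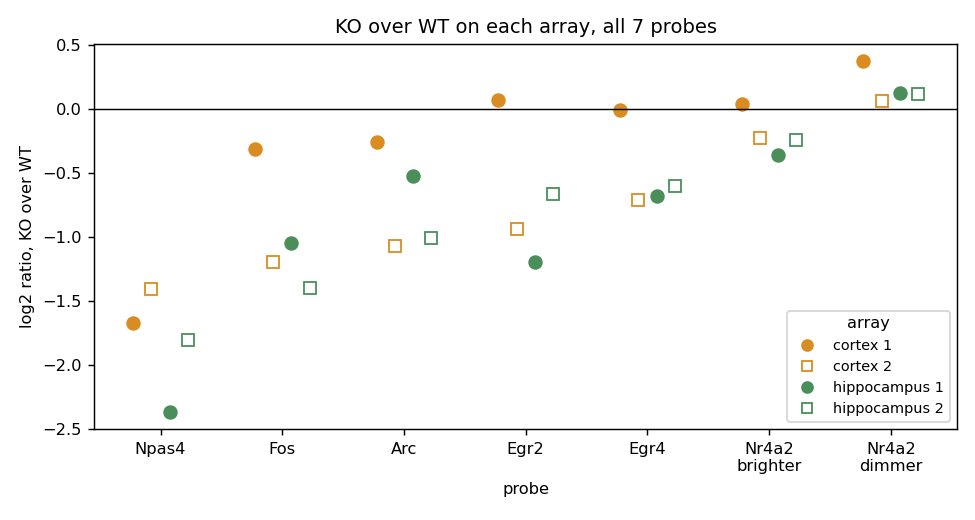
Log2 ratio of KO over WT (vertical axis) for each of the 7 probes (horizontal axis) on each of the 4 arrays, with cortex in orange, hippocampus in green, replicate 1 as filled circles and replicate 2 as open squares; the line marks 0. Npas4 lies at -1.40 or lower on every array, cortex array 1 is the highest point for each probe except that of Npas4, and the dimmer Nr4a2 probe lies above 0 throughout.

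The spread of the members between replicates was itself uneven across groups. In WT cortex, replicate 2 exceeded replicate 1 by 0.71 for Fos, 0.81 for Arc, 0.95 for Egr2 and 0.62 for Egr4. These 4 differences were larger than those of 95% of all genes in WT cortex (0.41), whereas Npas4 differed by -0.14 and Nr4a2 by 0.17. In KO cortex none of the 6 differed by more than the corresponding 0.37, and the median difference of the 6 was 0.09 in KO cortex, against 0.67 in WT cortex. In KO hippocampus Egr2 alone exceeded the 0.42 of that group, with 0.83, and in WT hippocampus Fos alone exceeded the 0.51 of that group, with 0.64. The cortex ratios of Fos, Arc, Egr2 and Egr4 therefore rest on WT samples that were unlike each other. On cortex array 2 alone they were -1.19, -1.07, -0.94 and -0.71, and on cortex array 1 alone -0.31, -0.26, 0.07 and -0.01.

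**Figure D3:**
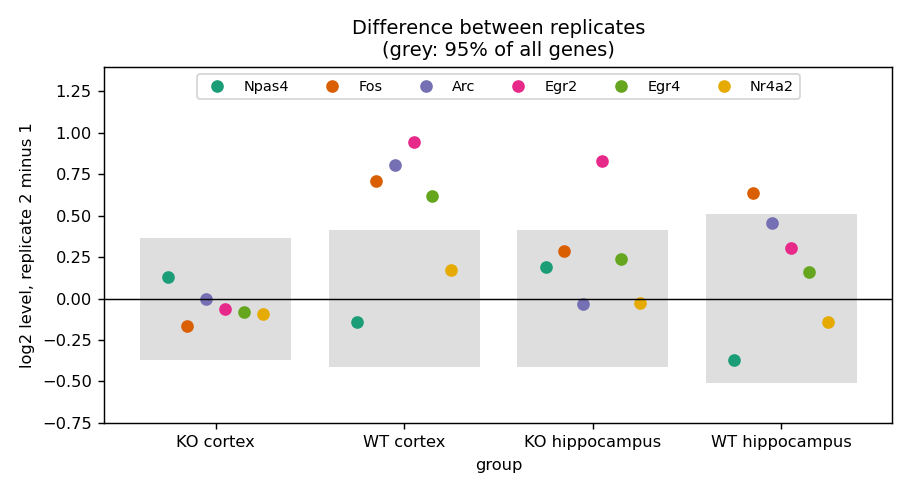
Difference in log2 level between replicates, replicate 2 minus replicate 1 (vertical axis), for the 6 genes in each group (horizontal axis), with a grey band that holds 95% of all genes tested. Fos, Arc, Egr2 and Egr4 lie above the band in WT cortex, at 0.62 to 0.95, and no member lies outside it in KO cortex.

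Marker genes of neighbouring tissue also varied between samples. The mean log2 level of 9 choroid plexus markers was 11.99 and 11.18 in KO cortex, against 11.34 and 8.86 in WT cortex, and 8.56 and 9.34 in KO hippocampus, against 8.54 and 12.37 in WT hippocampus. WT cortex replicate 2, where 4 members were high, thus had the lowest choroid plexus level of the cortex samples. WT hippocampus replicate 2 had the highest of the hippocampus samples. There Fos, Arc, Egr2 and Egr4 exceeded replicate 1 by 0.64, 0.45, 0.30 and 0.16, and Npas4 and Nr4a2 differed by -0.37 and -0.14. The mean of 9 neuronal markers was 15.31 and 15.27 in KO cortex, against 15.18 and 15.13 in WT cortex, and 15.20 and 15.25 in KO hippocampus, against 15.24 and 15.13 in WT hippocampus. The group means of the neuronal markers in KO were not below those in WT in either tissue. By gene, the KO to WT ratio was below 0 for 1 of the 9 in cortex (Mtap2, -0.42) and for 4 in hippocampus. All of these markers were above background in at least 1 sample. The median KO to WT ratio of the choroid plexus markers was 1.31 in cortex, with 0 of 9 below 0, and -1.48 in hippocampus, with 9 of 9 below 0, so these shifts cancel in the mean of both tissues. None of the 9 passed in limma in either tissue or over both, and 1 in each tissue and 0 over both had an unadjusted p under 0.05. Striatal markers had a median of -0.35 in cortex, with 9 of 9 below 0, and of -0.02 in hippocampus, with 5 of 9 below 0. Of 10 microglial markers 8 were below 0 over both tissues, and C1qa (-0.53), C1qb (-0.50) and Trem2 (-0.41) passed as lower in KO (limma, adjusted p = 0.0246, 0.0256 and 0.0298). Endothelial markers were below 0 over both tissues in 7 of 7, and Cldn5 passed (-0.59, adjusted p = 0.0283). The thalamic marker Tcf7l2 also passed as lower in KO (-0.32, adjusted p = 0.0330), with 4 of 5 thalamic markers below 0. The cortical marker Rorb (0.43) and the hippocampal markers Dsp (0.71) and Tdo2 (0.29) passed as higher. Below 0 were 1 of 6 cortical and 3 of 8 hippocampal markers. Tdo2 turned to -0.78 under median centring. With the mean of a gene's probes, Rorb (0.16) and Tcf7l2 (-0.31) did not pass (limma, adjusted p = 0.0882 and 0.121). In the main fit over both tissues 11.0% of all genes passed, and 0 passed under robust estimation with an intensity trend, under which all of these marker calls ended. They all ended too with outlying local backgrounds kept (limma, adjusted p = 0.107 to 0.209). Rorb, Dsp, Tdo2 and Tcf7l2 then moved toward 0, whereas C1qa, C1qb, Trem2 and Cldn5 moved away from it. Tdo2 also failed on processed signals (limma, adjusted p = 0.662), on the authors' table (0.0591) and without the array term (0.191). The part of choroid plexus, striatal, microglial or endothelial RNA in the members' values was not tested. In bulk tissue, fewer cells of a type and less RNA per cell cannot be told apart.

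Cortex and hippocampus were then compared within each dye. Among KO samples, Npas4, Fos, Egr2 and Egr4 passed as higher in cortex (limma on single-channel levels, adjusted p under 0.05), and 7.60% of all genes were called higher in that comparison. Among WT samples, Npas4, Fos and Egr2 passed, with 7.25% of all genes called higher. Npas4 was 3.75-fold higher in cortex in KO, with a difference of 1.91 ± 0.15 and an adjusted p of 0.00045. In WT it was 2.57-fold higher, with 1.36 ± 0.15 and an adjusted p of 0.00151. Egr2 was 3.91-fold higher in cortex in KO (1.97 ± 0.35, adjusted p = 0.0118) and 2.77-fold higher in WT (1.47 ± 0.35, adjusted p = 0.0348). Fos was 2.97-fold higher in cortex in KO (1.57 ± 0.28, adjusted p = 0.0116) and 2.14-fold higher in WT (1.10 ± 0.28, adjusted p = 0.0426). Egr4 differed by 0.79 ± 0.20 in KO (adjusted p = 0.0416) and by 0.51 ± 0.20 in WT, where it did not pass (adjusted p = 0.146). Arc, with 0.77 ± 0.26 in KO and 0.67 ± 0.26 in WT, passed in neither genotype (adjusted p = 0.104 and 0.145). Nr4a2 had 0.18 ± 0.09 in KO and -0.02 ± 0.09 in WT (adjusted p = 0.253 and 0.905). Both cortex samples lay above both hippocampus samples for all 6 genes in KO and for 5 in WT, against 28.8% and 24.9% of all genes, with Nr4a2 the exception in WT. On the dimmer Nr4a2 probe the tissues overlapped in KO as well.

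**Figure D4:**
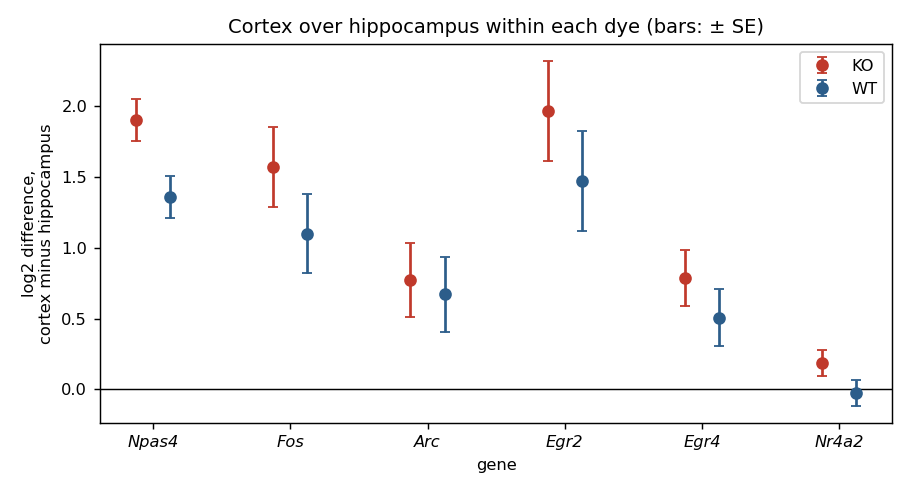
Log2 difference, cortex minus hippocampus (vertical axis), for each gene (horizontal axis) in KO in red and WT in blue, with bars of 1 SE from the limma fit. Npas4, Egr2 and Fos are highest in both genotypes, at 1.57 to 1.97 in KO and 1.10 to 1.47 in WT, and Nr4a2 lies near 0.

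Of these tissue calls that of Npas4 alone passed with every 1 array left out. Without the array of the first cortex replicates the KO comparison kept 1 member, with adjusted p = 0.0642 for Fos, 0.0584 for Egr2 and 0.0687 for Egr4. Without the first hippocampus array it also kept 1, with 0.0618, 0.0857 and 0.213, and without the second cortex array it kept 2, with 0.052 for Egr2 and 0.0523 for Egr4. Without the second hippocampus array Egr4 no longer passed (adjusted p = 0.113). In WT 1 member passed whichever array was left out, with adjusted p of 0.057 to 0.247 for Fos and 0.053 to 0.221 for Egr2. Their differences stayed positive throughout, at 1.43 or more for Fos, 1.55 or more for Egr2 and 0.67 to 0.91 for Egr4 in KO where the call was lost, and at 0.74 to 1.94 for Fos and Egr2 in WT. The WT calls of Fos and Egr2 also ended on the scanner software's processed signals (adjusted p = 0.074 and 0.0716), under robust estimation with an intensity trend (0.0614 and 0.059) and in a fit of the WT samples alone (0.115 and 0.0645). With no filter on dim probes Fos in WT (0.0532) and Egr4 in KO (0.0533) did not pass. Arc, in contrast, passed in KO in a fit of the KO samples alone (0.00367). The median difference of the 6 was 1.18 in KO and 0.89 in WT, against -0.01 and -0.02 over all genes. Striatal markers were also higher in cortex, with a mean level of 12.82 and 12.87 in KO cortex, against 10.11 and 10.58 in KO hippocampus. In WT the mean level was 13.32 and 13.05 in cortex, against 10.21 and 10.33 in hippocampus. The median difference of the striatal markers was 2.34 in KO and 2.62 in WT, so it was larger in WT, whereas that of the 6 genes was larger in KO. The part of striatal RNA in the members' difference was not tested.

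Levels of the 6 genes, Nr4a2 by its brighter probe, were positively correlated across the 8 samples. Pearson's r between levels of 2 members was highest for Fos with Egr4, at 0.98, and lowest for Egr2 with Nr4a2, at 0.62. These points share arrays and a slide, and all KO samples share a dye. The genes were also chosen by their KO to WT ratios on these samples, which can itself raise r across genotypes. For these reasons r is given as a description. Outside the 6, the genes closest to their centred mean over the 8 samples were Tapbpl, Habp4, Stim1, Ptges2 and Pard6a, with r of 0.98 to 0.99. All genes named for closeness are the top of a search over many genes on 8 samples. Such a search favours high r by itself, and no likeness was tested. Closest to single members were Tgfb1 and Lphn1 for Npas4, R3hcc1 and Dusp1 for Fos, Slc4a3 and Fosb for Egr2, Ptgdr and Dusp1 for Egr4, Atp6ap1 and Rab4b for Nr4a2, and Cda and Fkbp2 for Arc. Ptgdr was well above background in 2 KO and 0 WT samples, so its r rests mostly on values at background. Fosb, another AP-1 subunit, and Dusp1, an inducible phosphatase of MAP kinases, are immediate-early genes. Dusp1 had r of 0.99 with Fos and 0.97 with Egr4 and a KO to WT ratio of -0.55 ± 0.15 over both tissues that did not pass (adjusted p = 0.0802). It was higher in cortex than in hippocampus in KO (1.22, adjusted p = 0.0141) and in WT (0.93, adjusted p = 0.0377). Fosb had r of 0.99 with Egr2, a ratio of -0.26 ± 0.11 that did not pass (adjusted p = 0.188), and was higher in cortex in KO (1.02, adjusted p = 0.0210) and in WT (0.90, adjusted p = 0.0334).

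Other genes of the pathway were read in lists that hold none of the 6. Of 24 other immediate-early transcription regulators 23 were tested, and their median KO to WT ratio over both tissues was -0.05, against -0.70 for the 6 genes and 0.03 for all genes. By array their median was 0.15 and -0.16 in cortex and -0.03 and -0.15 in hippocampus. The 6 genes were chosen by this ratio and the list was not, so nothing is read from the gap between their medians. Egr3, Nr4a3, Atf3 and Maff of the list were not well above background in any WT sample, which limits their ratios. In KO 2 genes of the list passed as lower, in a comparison that called 11.0% of all genes, 3.76% as lower and 7.21% as higher. These were Btg2, an antiproliferative cofactor (-0.90 ± 0.05, adjusted p = 0.0132), and Ier2 (-0.57 ± 0.09, adjusted p = 0.0390), each below 0 on all 4 arrays. Of 27 activity-induced effectors, with a median of -0.09, 2 passed as lower and 2 as higher. Gadd45g, a stress-inducible regulator of growth arrest, had -0.60 ± 0.05 (adjusted p = 0.0213), and Cyr61, a secreted matrix protein, had -0.87 ± 0.16 (adjusted p = 0.0443). Plk2, a kinase induced by activity that acts at synapses, had 0.29 ± 0.05 (adjusted p = 0.0372), and Bdnf, the neurotrophin, had 0.41 ± 0.08 (adjusted p = 0.0485). Btg2 averaged 10.32 in KO cortex, against 11.36 in WT cortex, and 9.83 in KO hippocampus, against 10.60 in WT hippocampus. Bdnf, often described as a target of Npas4, averaged 10.92 in KO cortex, against 10.50 in WT cortex, and 11.71 in KO hippocampus, against 11.32 in WT hippocampus. All 6 calls ended with outlying local backgrounds kept (adjusted p = 0.107 to 0.246) and under robust estimation with an intensity trend (0.0761 for each). With 1 array left out at most 1 gene of all those tested passed, so their loss there is shared by nearly every call. Btg2 kept its size, at -0.93 to -0.87 with an array left out and at -0.97 and -1.10 in cortex and -0.77 and -0.77 in hippocampus by array.

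Upstream transducers, the kinases, transcription factors and cofactors that act between the calcium signal and these promoters, had a median ratio of 0.02 over 20 genes. None passed in limma, and 6 had an unadjusted p under 0.05, as had 33.9% of all genes. Lowest in p were Mef2a (0.26 ± 0.05, adjusted p = 0.0511), Crebbp, the CREB-binding acetyltransferase (0.25 ± 0.06, adjusted p = 0.0711), and Srf (0.17 ± 0.05, adjusted p = 0.0867), but Mef2a was at -0.01 when arrays were centred on their median in place of loess. Of 12 partners and corepressors of the 6 proteins none passed either, and 3 had an unadjusted p under 0.05, a share below that of all genes. Their median was -0.02. Junb, Jun and Jund, which dimerise with Fos, had -0.47 ± 0.17, -0.05 ± 0.07 and -0.17 ± 0.05 (adjusted p = 0.135, 0.683 and 0.0904). Median centring turned Jun to 0.16 and Jund to 0.14. Arnt and Arnt2, the dimer partners of Npas4, had -0.01 ± 0.06 and 0.10 ± 0.10 (adjusted p = 0.927 and 0.527), with no settled sign across alternatives. The Egr corepressors Nab1 and Nab2 had -0.10 ± 0.07 and 0.25 ± 0.08 (adjusted p = 0.370 and 0.109). Of the retinoid X receptors that pair with Nr4a2, Rxra, not well above background in WT, has only a bound there and did not pass (adjusted p = 0.0918). Rxrb had -0.11 ± 0.04 and Rxrg -0.29 ± 0.16 (adjusted p = 0.173 and 0.258), and median centring reversed Rxra and Rxrb. Sh3gl1, an endophilin that binds Arc, had -0.12 ± 0.04 (adjusted p = 0.129). Within single tissues no gene of the 4 lists passed in limma, in comparisons that called 0.0596% of all genes in cortex and 0.0179% in hippocampus. In cortex 6, 7, 3 and 2 genes of the 4 lists had an unadjusted p under 0.05, against 21.2% of all genes. In hippocampus the counts were 7, 7, 2 and 2, against 23.7% of all genes.

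**Figure D5:**
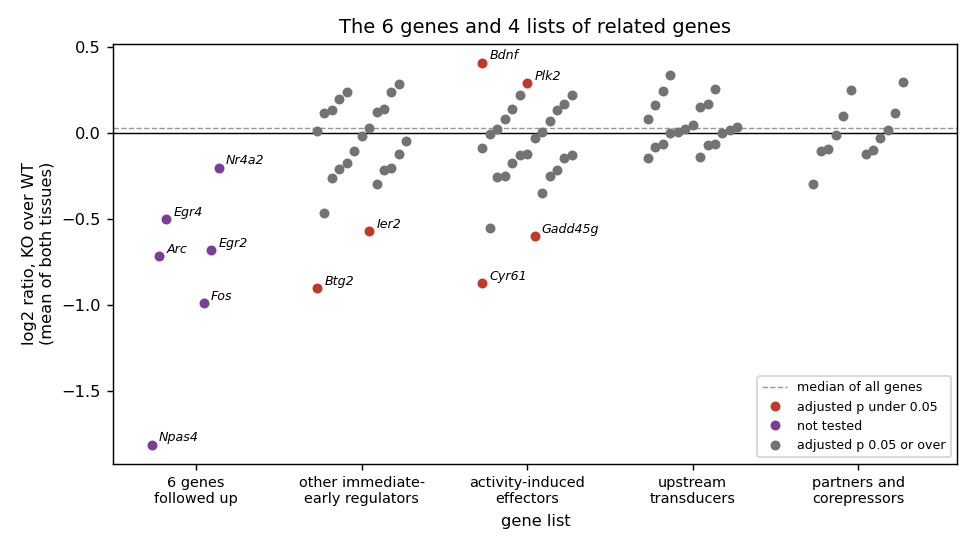
Log2 ratio of KO over WT averaged over both tissues (vertical axis) for the 6 genes and for 4 lists of related genes (horizontal axis), with genes past an adjusted p of 0.05 in red, the 6 genes, which were not tested, in purple and the median of all genes as a dashed line. Btg2 at -0.90 and Cyr61 at -0.87 lie lowest among the lists, between Arc at -0.72 and Fos at -0.99.

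Calls between tissues went in both directions in 3 of the 4 lists. Of the other immediate-early regulators 4 were called higher and 4 lower in cortex in KO, and 6 higher and 4 lower in WT, where 14.8% of all genes were called in KO, 7.60% higher and 7.19% lower, and 14.9% in WT, 7.25% higher and 7.68% lower. Jun was lower in cortex than in hippocampus by 1.06 in KO and 0.84 in WT (adjusted p = 0.00717 and 0.0177), opposite to Fos. Of the activity-induced effectors 8 were called higher and 6 lower in cortex in KO, and 10 higher and 7 lower in WT. Of the 20 upstream transducers 2 were higher and 0 lower in KO, and 3 higher and 0 lower in WT. Of the 12 partners and corepressors 1 was higher and 1 lower in each genotype. Bdnf was lower in cortex by 0.79 in KO and 0.82 in WT (adjusted p = 0.00589 and 0.00499). Rxrg was higher in cortex by 1.57 in KO and 2.38 in WT (adjusted p = 0.00708 and 0.00122).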

How the data were processed

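Total RNA was labelled with Cy5 (KO) or Cy3 (WT), per the labels. The deposited files hold intensities from the scanner software (Feature Extraction 10.1.1.1) and its log10 ratio of Cy5 over Cy3, per the file headers. That ratio was used as a check and had r of 0.67 to 0.76 with the ratios used here. The deposited value table holds log2 values made by the authors, with column medians of 8.21 to 8.25 and r of 0.94 to 0.97 with the ratios used here, in the direction KO over WT. Its background correction is not given in the sources used here, and limma is named in the submitters' processing notes. Files of samples sharing tissue and number were identical in all 4 pairs, so 8 samples are 4 arrays, on 1 slide and from 1 scan, which leaves no batch to test.

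Signals were fitted in R 4.3.3 with limma 3.58.1. Background was corrected with normexp (offset 50), with outlying local backgrounds replaced by the channel's median, a choice made with gene counts known. Loess (span 0.3) was run within each array, giving weight 0 to 1377 control spots, and Aquantile was used for levels. Spots marked outlying were dropped, spots of a probe averaged, and a gene read by its brightest probe if well above background in both samples of at least 1 group. Outlying spots left out 29 genes. KO over WT was fitted by lmFit and eBayes on 4 log ratios (2 residual and 2.618 prior degrees of freedom), tissues by lmscFit (within-spot correlation 0.1889, also used with an array left out), with Benjamini-Hochberg adjustment over all genes. The steps were tested on simulated data.

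The members, lists and rules were chosen with earlier results of these data known. Named were the 6 members with every probe, in each other list the genes past adjusted p 0.05 in KO over WT or else the 3 lowest p over both tissues, partners of the members, and for likeness the 5 highest Pearson r with the members' centred mean and 2 for each member. Cell type markers past adjusted p 0.05 were named after their values were seen. Gene names are the array's.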

Additional observations from a re-analysis of the deposited data

How the results depend on the processing

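Under 14 alternatives Npas4 stayed below 0, at -1.67 to -1.35 in cortex and -2.36 to -1.81 in hippocampus, as did Fos, Arc and Egr4 in both tissues and Egr2 in hippocampus. Their sizes were less steady. Fos ran from -1.19 to -0.31 in cortex and from -1.40 to -1.05 in hippocampus. Egr4 ran from -0.71 to -0.01 in cortex and from -0.68 to -0.42 in hippocampus. Under median centring Arc was at -0.29 in cortex and -0.40 in hippocampus, against -0.67 and -0.77 with loess. Not all of the 14 could move a mean ratio. The filters on dim probes, the intensity trend, the block settings and arrays left out in the other tissue left it unchanged. So did the mean of a gene's probes for members with 1 probe. Egr2 in cortex ran to 0.07 and Nr4a2 in cortex to 0.11. The median of the 6 genes in hippocampus was -0.81 with outlying local backgrounds kept, -0.74 under median centring, -0.91 on the scanner software's processed signals and -0.76 on the authors' value table. Before median centring was set on the genes tested, their median ratio was 0.51 to 0.60 by array, so values under it are relative to that shift. With 1 array left out, 1 to 3 members were called higher in cortex in KO and 1 in WT whichever array it was, in fits where the lone sample of a group is assumed to vary like the others. In WT 1 was called on processed signals, 1 with an intensity trend and robust estimation and 1 from the samples of one dye alone. Of the 4 lists, 0 genes were called higher and 0 lower with outlying backgrounds kept, with the intensity trend and with any array left out (0 to 0). Median centring called 27 higher and 25 lower, processed signals and the strict filter 1 higher each, and 7 were higher on the authors' table and 5 with the mean of a gene's probes. Without the array term (no replicate block) 4 were called higher, and with the replicate block 5 were called higher and 8 lower. Under that block Arc passed in KO (adjusted p = 0.00298) and WT (0.0483). The labels do not pair samples across tissues, 2 numbers cannot show pairing, and deviations of samples with one number had r of 0.24 between KO tissues and -0.08 between WT tissues. All genes called over both tissues numbered 1839, against 3 with outlying backgrounds kept, 0 with the intensity trend, 0 to 1 with an array left out, 1210 on processed signals, 985 with the strict and 3374 with no filter and 10617 under median centring. Between tissues, 643 to 755 genes were called in the cases where an array left out moved the count, against 2481 in KO and 2506 in WT; in WT the block called 1423 and one dye alone 1496. Signs changed for Nr4a2 between WT tissues, at 0.053 with backgrounds kept, 0.0021 on processed signals and -0.11 to 0.063 with an array left out. Over both tissues they changed for Arnt, at 0.017 on processed signals, 0.021 on the authors' table, 0.087 for the mean of probes and -0.059 to 0.041 with an array left out. They also changed for Arnt2, at -0.016 with backgrounds kept and -0.023 to 0.22 with an array left out, and for Jun, at -0.13 to 0.033 with an array left out. Under median centring they changed for Jun (0.16), Jund (0.14), Mef2a (-0.013), Rxra (-0.69) and Rxrb (0.21). The causes were not tested. Median signals were 3.24 to 3.66 times those of negative controls in KO and 1.35 to 1.43 times in WT, which limits WT values of dim probes.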
